A study of Mus musculus with 8 samples.

Results

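The genes described here encode actins, tropomyosins and proteins that set the length and stability of the muscle thin filament. They are the 10 genes Acta1, Actc1, Acta2, Tpm1, Tpm2, Neb, Lmod2, Lmod3, Klhl41 and Xirp1, taken by symbol from each of 3 expression tables of 23115, 28603 and 28748 loci. All 10 were found in every table. Klhl41 stands there under its older symbol Kbtbd10, and Tpm2 shares its locus with E130306D19Rik in the KI table, so that value is merged.

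RNA was sequenced from primary mouse myoblasts (strain B6/129), grown from satellite cells, the muscle stem cells, and induced to differentiate for 24 h. The female KO library came from mice carrying floxed UTX (Kdm6a, the X-linked histone H3 lysine 27 demethylase) with Pax7-CreER and a Cre-dependent TdTomato reporter at Rosa26, and the female WT library from mice with the same Cre and reporter but no floxed UTX. Pax7 drives the Cre in satellite cells, and the protocol has cells sorted for the reporter and cultured with 20% serum, FGF at 2.5 ng/mL and 4-OH-tamoxifen at 2.5 µM in all groups. The male KO and male WT libraries carry the same titles with the sex changed. The female KI and female Ctrl-KI groups have 2 libraries each, and the labels used here name neither the KI allele nor the genotype of the male and KI mice. Ages are not given. Each KO or WT column is a single library, and the authors pooled both libraries of a KI or Ctrl-KI column, so no table gives replicate values and none of the 3 comparisons has a p-value of its own. The labels do not say whether libraries came from separate animals.

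Values are FPKM (fragments scaled to transcript length and to the mapped total) with the authors' confidence bounds, the only error a single value has. Read depth is unknown. The interval of a gene spanned a median of 120% of its FPKM in female KO and 119% in female WT, 167% in male KO and 171% in male WT, but 39.8% in KI and 40.0% in Ctrl-KI. Kdm6a itself was 16.9 FPKM in female KO and 20.8 in female WT cells, 2.08 in male KO and 7.87 in male WT cells, and 13.2 in KI and 12.8 in Ctrl-KI cells. These values cover the whole gene, and the floxed part alone is not given. Pax7, Myod1, Myog and Des, which define the myogenic lineage, were above 3 FPKM in every column, and of 7 cardiac markers Myl7 was at 0 and Nkx2-5 under 0.02 FPKM in all 6, while Myh6 was 6.97 FPKM in KI and 0.258 in Ctrl-KI cells (log2 ratio 2.66, intervals apart).

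The thin filament is a double strand of actin with tropomyosin lying along its groove, which in muscle gates access of myosin to actin under the control of calcium and troponin. Nebulin spans the filament lengthwise, leiomodins promote actin assembly and act at the pointed end, and the kelch protein KLHL41 stabilises nebulin. During muscle differentiation the cytoplasmic actins of the myoblast give way to alpha-actins, with cardiac and smooth muscle alpha-actin transcribed early beside the skeletal form. Serum response factor binds CArG boxes, MEF2 proteins bind the MEF2 site, TEAD factors bind MCAT elements and MyoD-family factors bind E-boxes in promoters of such genes.

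RefSeq promoters (build GRCm38.p6, 250 bases before to 50 after the gene's start) were matched for 7 of the 10 genes: Acta1, Actc1, Acta2, Tpm1, Tpm2, Lmod2 and Klhl41. A CArG box (CCWWWWWWGG, where W is A or T) was found in 2 of these 7, Acta1 and Actc1, against 1.63% of all 32851 promoters of the same length. Only exact matches were counted. The Acta2 promoter holds CCCTATATGG and CCTTGTTTGG, each 1 base off that pattern. Near matches also occur elsewhere: Actc1 holds CCCTATATGG, Tpm1 CCATATATAG and Lmod2 CTAAATATGG, each 1 base off. How many of all promoters hold a near match was not counted. A MEF2 site was found in 1, Klhl41, against 3.19% of all, and an MCAT element (CATTCC) in 3, Acta1, Acta2 and Tpm1, against 14.7%. All 7 hold an E-box (CANNTG), as do 72.3% of all promoters. Both strands were searched, and a match is a description of these letters only. The promoters of the 3 alpha-actins and of Klhl41 are shown as examples that hold such a match. Those of Tpm2 and Lmod2, whose values were also lower in KO libraries, hold no exact match to the CArG box, the MEF2 site or the MCAT element. Capitals mark the CArG box in Acta1 (CCAAATATGG) and Actc1 (CCAAATAAGG), the MCAT element in Acta1 and, on the other strand, in Acta2, and the MEF2 site in Klhl41 (CTATATTTAG). They lie at chr8:123894726-123895025 (Acta1), chr2:114052826-114053125 (Actc1) and chr19:34255324-34255623 (Acta2), all on the minus strand, and at chr2:69669870-69670169 on the plus strand (Klhl41).
Acta1: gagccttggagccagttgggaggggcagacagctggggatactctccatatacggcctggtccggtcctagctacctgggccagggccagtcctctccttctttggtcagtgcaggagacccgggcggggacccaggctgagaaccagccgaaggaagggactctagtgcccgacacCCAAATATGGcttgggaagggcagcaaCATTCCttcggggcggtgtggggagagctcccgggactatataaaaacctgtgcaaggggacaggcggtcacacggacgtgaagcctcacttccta
Actc1: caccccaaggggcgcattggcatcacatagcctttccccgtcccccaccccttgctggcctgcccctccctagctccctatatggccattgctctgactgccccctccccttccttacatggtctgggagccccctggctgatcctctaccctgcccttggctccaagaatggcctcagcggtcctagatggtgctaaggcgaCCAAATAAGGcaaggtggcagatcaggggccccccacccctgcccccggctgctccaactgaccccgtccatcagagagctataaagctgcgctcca
Acta2: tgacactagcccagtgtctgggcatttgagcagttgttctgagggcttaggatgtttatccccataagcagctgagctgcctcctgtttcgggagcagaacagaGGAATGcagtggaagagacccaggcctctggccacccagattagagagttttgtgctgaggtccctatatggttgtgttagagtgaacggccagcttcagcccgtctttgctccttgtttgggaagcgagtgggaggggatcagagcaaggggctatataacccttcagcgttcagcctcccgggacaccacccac
Klhl41: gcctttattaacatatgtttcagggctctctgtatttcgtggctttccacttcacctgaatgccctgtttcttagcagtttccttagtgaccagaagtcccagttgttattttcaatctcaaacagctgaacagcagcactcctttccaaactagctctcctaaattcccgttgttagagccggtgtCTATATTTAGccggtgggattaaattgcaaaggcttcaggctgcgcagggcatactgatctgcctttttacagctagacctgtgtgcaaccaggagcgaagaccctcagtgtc

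In female KO myoblasts 10 of 10 genes had a lower FPKM than in WT, as did 56.7% of all genes tested, and 4 of them, Acta1, Actc1, Acta2 and Tpm2, were at least 2-fold lower, where 4.4% of the 12344 genes tested were at least 2-fold lower. The log2 ratio, log2 of (KO FPKM + 1) over (WT FPKM + 1), had a median of -0.92 over the 10 genes and of -0.08 over all genes tested, and ran from -1.47 for Acta1 to -0.07 for Xirp1. After rescaling to TPM, Actc1 (-0.95) and Acta2 (-0.90) were no longer 2-fold lower, nor was Acta2 with median-centred ratios, which left 3 of 10. Of all genes, 427 of 13594 were at least 2-fold lower after TPM and 396 of 12344 with median-centred ratios. Over all genes tested, log2 ratios ran from -0.97 to 0.96 in females and from -1.17 to 1.45 in males (5th to 95th percentile). In male KO myoblasts the ratios of 8 of 9 genes were further from 0 than in females and that of Tpm1 was nearer, which was not tested. All 9 genes that could be compared were lower than in WT (51.6% of all genes tested) and 8 of them at least 2-fold (6.47% of 11440 genes tested), with a median of -2.13 against -0.02 over all genes, from -2.81 for Lmod2 to -0.25 for Tpm1. In KI cells 8 of 9 were lower than in Ctrl-KI, as were 57.4% of the 11084 genes tested, and 0 of 9 at least 2-fold (0.893% of all), with a median of -0.45 against -0.04. TPM over all loci moved the median of all genes in the KI table to -0.77. After it 8 of 9 were at least 2-fold lower, as were 1683 of all 10715 genes. Genes tested had a symbol, an estimate flagged OK in both columns and at least 1 FPKM in 1 column. All 10 genes met the FPKM minimum in every table, and the exception in the male and KI tables was Neb, whose estimate failed in the control column.

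**Figure D1:**
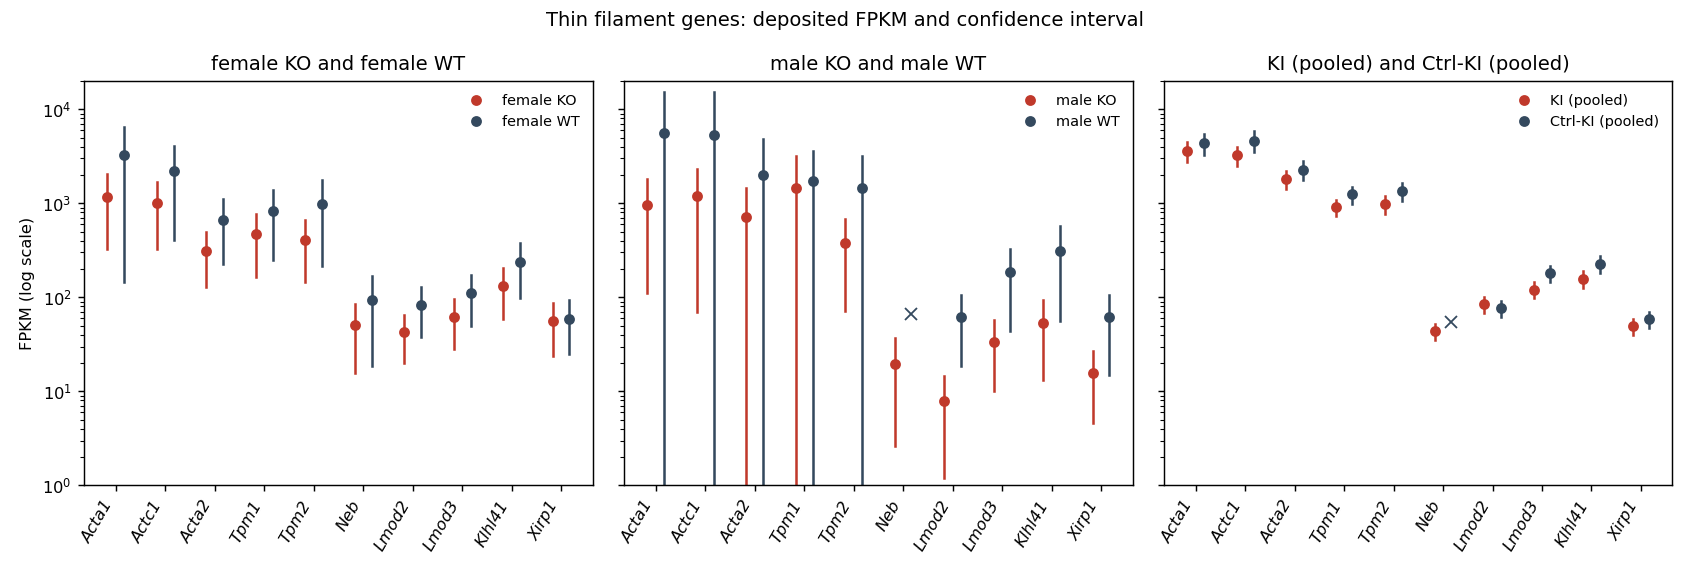
Deposited FPKM (log axis) of each gene with the authors' confidence interval, mutant column in red to the left of its control column in dark blue, for female KO and WT, male KO and WT, and the pooled KI and Ctrl-KI columns. Crosses are failed Neb estimates (66.9 FPKM in male WT, 54.5 in Ctrl-KI), and bars that reach the foot of the plot have a lower bound of 0.

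Skeletal alpha-actin, Acta1 (mm9 chromosome 8, 126415667 to 126418636), the thin filament actin of adult muscle, was 1180.1 FPKM in female KO and 3278 in female WT cells, with deposited bounds of 325 and 2035 in KO and of 147 and 6409 in WT. Male values were 957 FPKM in KO cells (interval 111 to 1804) and 5658 in WT cells (interval 0 to 15412.5), and the pooled values 3622 in KI and 4333 in Ctrl-KI cells. Both KO libraries were low, at 36.0% of WT in females and 16.9% in males, but the intervals overlapped in each table. Its log2 ratio was -1.47 in females, -2.56 in males and -0.26 in the KI table.

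Cardiac alpha-actin, Actc1 (chromosome 2, 113873025 to 113878547), the form that precedes Acta1 in developing skeletal muscle, was 1012.2 FPKM in female KO and 2218 in female WT cells. It was 1207 in male KO and 5287 in male WT cells, and 3236 in KI and 4646 in Ctrl-KI cells. The KO libraries were again low, with log2 ratios of -1.13 in females, -2.13 in males and -0.52 in the KI table. All 3 pairs of intervals overlapped.

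Smooth muscle alpha-actin, Acta2 (chromosome 19, 34315581 to 34329826 in the female KO table), which differentiating myoblasts also transcribe, was 312 FPKM in female KO and 663 in female WT cells. In males it was 724 in KO and 2000.3 in WT cells, and the pooled values were 1819.8 in KI and 2289.6 in Ctrl-KI cells. Its log2 ratios, -1.08 in females, -1.47 in males and -0.33 in the KI table, were closer between the sexes than those of the other alpha-actins (male minus female -0.39, against -1.09 for Acta1 and -1 for Actc1), which was not tested. The locus is longer in the male and KI tables and overlaps Stambpl1 there, at 30.9 FPKM in male KO and 21.6 in male WT cells, and FPKM was estimated without a stated strand. Of 10 smooth muscle and pericyte markers, Myh11, which defines smooth muscle, was 2.14 FPKM in female KO and 1.22 in female WT cells and under 0.3 in the other 4 columns, and Cnn1 was at most 4.49 FPKM. Tagln, an actin-binding protein of smooth muscle, was higher, at 111 FPKM in female KO and 97 in female WT cells, 124 in male KO (a failed estimate) and 83.4 in male WT cells, and 158 in KI and 46.8 in Ctrl-KI cells (log2 ratio 1.74, intervals apart). Smtn was between 25.8 and 100 FPKM, and Pdgfrb, a pericyte marker, reached 26.7 FPKM in KI cells, against 0.442 in Ctrl-KI cells. The part of these markers in the Acta2 values was not tested.

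The balance of actin isoforms does not depend on how libraries were scaled to each other. The sum of Acta1 and Actc1 was 2.73 times that of the cytoplasmic actins Actb and Actg1 in female KO cells and 6.67 times in female WT cells. In males the same quotient was 0.679 in KO and 8.66 in WT cells, and for the pooled columns 3.98 in KI and 8.22 in Ctrl-KI cells. Male intervals reached 0 for Actb and Actg1 in KO cells and for Acta1 and Actc1 in WT cells, so the male quotients are loosely bounded. The 3 alpha-actins made up 75.6% of summed actin FPKM in female KO and 88.1% in female WT cells, 47.5% in male KO and 91.1% in male WT cells, and 83.4% in KI and 91.2% in Ctrl-KI cells. The mutant column was the lower in each of the 3 tables. Within the alpha-actins, Acta1 was 1.17 times Actc1 in female KO and 1.48 times in female WT cells, 0.793 times in male KO and 1.07 times in male WT cells, and 1.12 times in KI and 0.933 times in Ctrl-KI cells. Actin coding sequences are similar, so how reads that match several isoforms were divided is uncertain.

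**Figure D2:**
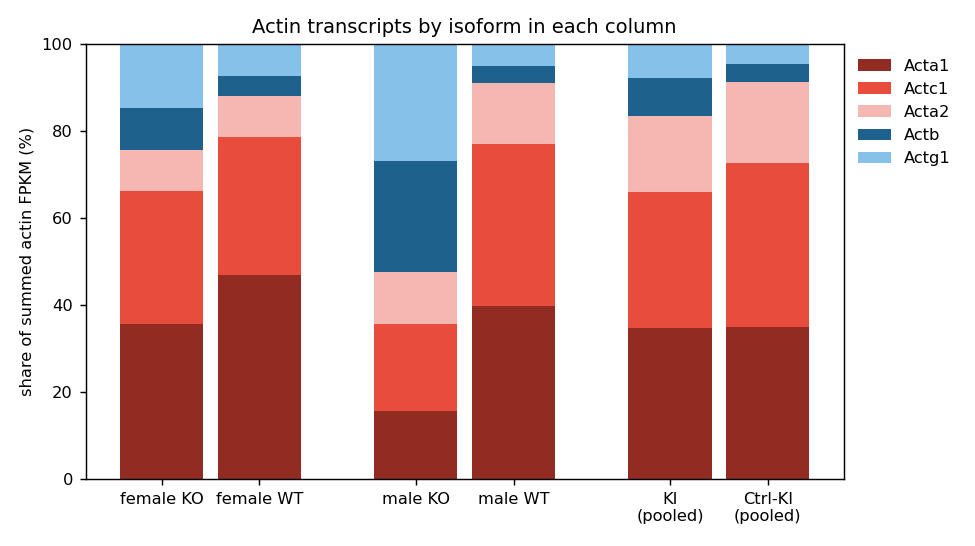
Share of summed actin FPKM (percent, linear axis) taken by Acta1, Actc1 and Acta2 in reds and by Actb and Actg1 in blues, 1 bar per column with the mutant left of its control. The blue shares, Actb and Actg1, together are larger in each mutant bar, most in male KO, where Actb is 25.5% and Actg1 26.9%, against 3.81% and 5.08% in male WT.

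In deposited FPKM the cytoplasmic actins were nearly equal in female KO and WT cells, and higher in male KO and KI cells than in their controls. In females Actb was 319 FPKM in KO and 324 in WT cells and Actg1 485 in KO and 500 in WT cells (log2 ratios -0.03 and -0.05, which turn positive, to 0.15 and 0.13, after rescaling to TPM). In males Actb was 1550 FPKM in KO and 542 in WT cells and Actg1 1637 in KO and 722 in WT cells, log2 ratios 1.51 and 1.18. Those ratios were 1.68 and 1.35 after TPM over loci with a symbol and 0.72 and 0.39 after TPM over all loci. The male KO intervals, 0 to 3231 for Actb and 0 to 3435 for Actg1, overlapped those of male WT, 102 to 983 and 87.8 to 1355. In the KI table Actb was 924 in KI and 516 in Ctrl-KI cells (log2 ratio 0.84, or 0.01 after TPM over all loci; intervals apart, as for 8.27% of all genes tested as higher) and Actg1 801 in KI and 576 in Ctrl-KI cells (0.48, but -0.36 after TPM over all loci). After TPM over loci with a symbol the KI ratios were 0.94 for Actb and 0.58 for Actg1. Actg2, the enteric smooth muscle actin, stayed under 5 FPKM in every column.

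The striated tropomyosins differed most from each other in males. Beta-tropomyosin, Tpm2 (chromosome 4, 43527584 to 43536260), was 407 FPKM in female KO and 993 in female WT cells, 380 in male KO and 1469 in male WT cells, and, merged, 981 in KI and 1341 in Ctrl-KI cells. It was low in both KO libraries, with log2 ratios of -1.29 in females, -1.95 in males and -0.45 in the KI table. Alpha-tropomyosin, Tpm1 (chromosome 9, 66870400 to 66897020), whose muscle and cytoplasmic isoforms are summed in a gene value, was 467 FPKM in female KO and 821 in female WT cells. It was 1462 FPKM in male KO and 1744 in male WT cells, and 909 in KI and 1247 in Ctrl-KI cells. Tpm1 was the gene nearest to 0 in males, at -0.25, against -0.81 in females and -0.46 in the KI table, and both male intervals reached 0. The male ratio was -0.23 with median-centred ratios, -0.09 after TPM over loci with a symbol and -1.05 after TPM over all loci. The quotient of Tpm1 over Tpm2 was therefore 3.85 in male KO and 1.19 in male WT cells, 1.15 in female KO and 0.827 in female WT cells, and 0.927 in KI and 0.929 in Ctrl-KI cells. Tpm1 had the highest FPKM of the 10 genes in male KO cells, a place held by Acta1 in male WT cells.

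Of the non-muscle tropomyosins, Tpm4, which stabilises cytoskeletal actin filaments, was higher in every mutant column. It was 177 FPKM in female KO and 103 in female WT cells, 189 in male KO and 45.4 in male WT cells, and 140 in KI and 41.6 in Ctrl-KI cells, log2 ratios of 0.77, 2.03 and 1.73, with intervals apart in the KI table alone. The sum of Tpm1 and Tpm2 was 4.94 times Tpm4 in female KO and 17.6 times in female WT cells, 9.75 times in male KO and 70.8 times in male WT cells, and 13.5 times in KI and 62.2 times in Ctrl-KI cells. Tpm3, a slow-fibre and cytoplasmic tropomyosin, was 154 FPKM in male KO and 75.0 in male WT cells (log2 ratio 1.03). That ratio was 1.2 after TPM over loci with a symbol and 0.24 over all loci. The female estimate of Tpm3 did not pass the status filter, and in the KI table Tpm3 is merged with Nup210l.

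Nebulin and the leiomodins stood below the alpha-actins in FPKM in every column. Nebulin, Neb (chromosome 2, 51992167 to 52194318), the giant ruler protein of the thin filament, was 50.3 FPKM in female KO and 93.3 in female WT cells, log2 ratio -0.88. It was 19.6 FPKM in male KO cells and 43.8 in KI cells, and the failed control estimates of 66.9 and 54.5 would give ratios of -1.72 and -0.31.

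Lmod2 (chromosome 6, 24547771 to 24555414), the leiomodin best known from heart, was 42.6 FPKM in female KO and 83.7 in female WT cells, 7.97 in male KO and 61.7 in male WT cells, and 85 in KI and 76.8 in Ctrl-KI cells. Male KO cells held 12.9% of the male WT value, with intervals of 1.19 to 14.7 and 18.8 to 105, and Lmod2 was the only one of the 9 genes whose male intervals did not overlap, where 0.262% of all genes tested were lower with intervals apart. Its log2 ratios were -0.96 in females, -2.81 in males and 0.14 in the KI table, the single value above 0 among the 10 genes. That KI value becomes 0.24 after TPM over loci with a symbol and -0.68 after TPM over all loci.

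Lmod3 (chromosome 6, 97188522 to 97202774), the skeletal muscle leiomodin, mutated in human nemaline myopathy, was 61.6 FPKM in female KO and 112 in female WT cells, 33.8 in male KO and 185 in male WT cells, and 121 in KI and 180 in Ctrl-KI cells. Its log2 ratio was -0.85 in females, -2.42 in males and -0.56 in KI cells. In the KI table its intervals, 98.3 to 144 in KI and 145 to 214 in Ctrl-KI cells, did not overlap, which held for 1 of the 9 genes and for 3.73% of all genes tested as lower. The quotient of Lmod3 over Lmod2 was 1.42 in KI and 2.34 in Ctrl-KI cells, 1.45 in female KO and 1.34 in female WT cells, and 4.24 in male KO and 3 in male WT cells.

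Klhl41 (chromosome 2, 69508177 to 69522296), a muscle kelch protein that keeps nebulin stable, was 132 FPKM in female KO and 237 in female WT cells, 53.1 in male KO and 313 in male WT cells, and 158 in KI and 228 in Ctrl-KI cells. Male KO cells held 16.9% of male WT, the same share as for Acta1, with intervals of 13.3 to 92.9 and 56.5 to 570 that overlapped. Its log2 ratios were -0.84, -2.54 and -0.53. In the male and KI tables its locus overlaps Fastkd1, at 6.09 FPKM in male KO and 8.33 in male WT cells.

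Xirp1 (chromosome 9, 119922873 to 119932716), which encodes Xin, an actin-binding protein of muscle attachment sites, was the gene least different in females. It was 55.9 FPKM in female KO and 58.9 in female WT cells, 15.8 in male KO and 61.2 in male WT cells, and 49.7 in KI and 58.9 in Ctrl-KI cells. Only the male ratio passed 2-fold, with log2 ratios of -0.07 in females, -1.89 in males and -0.24 in the KI table. The male KO interval of 4.65 to 26.9 still met that of male WT, 15.1 to 107. The female value turned to 0.01 with median-centred ratios and to 0.10 after TPM.

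**Figure D3:**
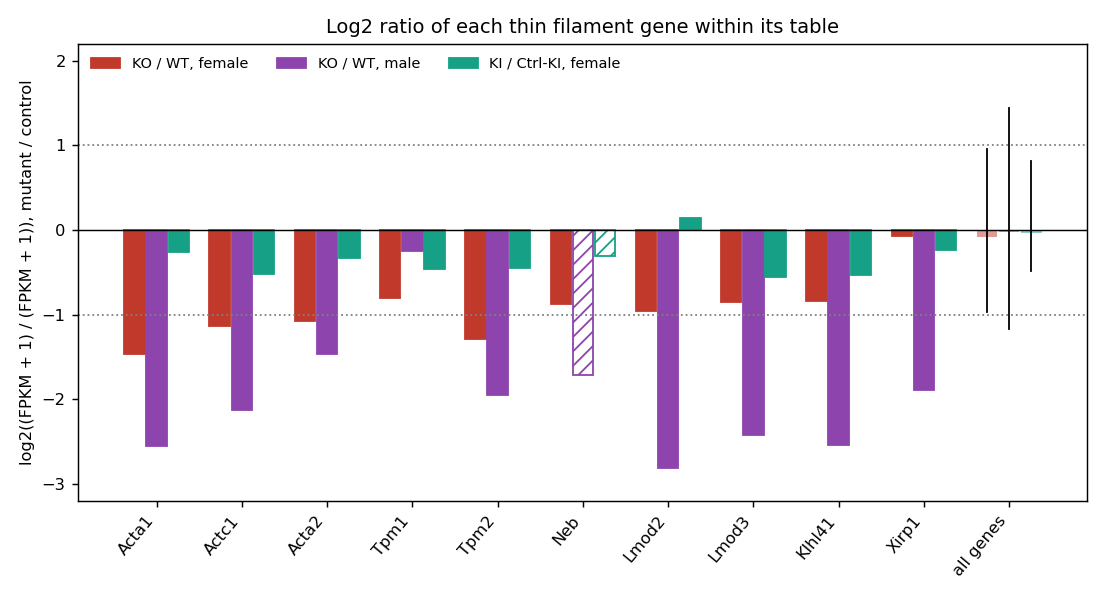
Log2 ratio (mutant over control, FPKM + 1) of each gene in female KO, male KO and KI tables, with the median of all genes tested and the range from the 5th to the 95th percentile as a black line at the right. Hatched bars use a failed control estimate. Dotted lines mark 2-fold; 8 male bars of tested genes lie below the lower line and 0 KI bars do.

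The order of levels was the same in outline in all columns: actins and tropomyosins first, then Klhl41, then Lmod3, with Neb, Lmod2 and Xirp1 last. Neighbours in that order had overlapping intervals in 9 of 9 pairs in female KO and 9 of 9 in female WT, 9 of 9 in male KO and 8 of 8 in male WT, 5 of 9 in KI and 4 of 8 in Ctrl-KI cells. In the narrower pooled intervals, Acta1 and Actc1 could not be ordered, nor could Tpm1 and Tpm2, while Acta2 stood below Acta1 and Actc1 and above Tpm1 and Tpm2.

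The KO ratios of females and males were also combined in a limma fit over 10482 genes, 9 of the 10 among them, whose error is how far the 2 ratios of a gene lie apart. All 9 had a mean below 0, but 0 of 9 passed an adjusted p of 0.05 (limma, Benjamini-Hochberg), and 0 of 10482 genes did, with 2079 at an unadjusted p under 0.05. At that unadjusted p, 7 of the 9 were lower, against 10.3% of all genes, and the exceptions were Tpm1 and Xirp1. Tpm2 averaged -1.62 ± 0.23 (mean log2 ratio ± moderated SE, n = 2 sexes; limma adjusted p = 0.0922) and Acta2 -1.27 ± 0.20 (limma adjusted p = 0.0922). Acta1 averaged -2.02 ± 0.29 and Actc1 -1.63 ± 0.28, both with the same limma adjusted p of 0.0922. Lmod2 (-1.88 ± 0.45), Lmod3 (-1.63 ± 0.39) and Klhl41 (-1.69 ± 0.41) had limma adjusted p-values of 0.12 to 0.123, and Xirp1 (-0.98 ± 0.44) and Tpm1 (-0.53 ± 0.22) of 0.299 and 0.262. The SE borrows spread from other genes. When only genes with at least 5 FPKM were fitted, 4 of the 9 passed as lower, where 88 of all 7732 genes did. Their limma adjusted p was 0.045 for Acta1, 0.0474 for Tpm2 and 0.0485 for Actc1 and Acta2. The smallest limma adjusted p of the 9 was 0.0913 to 0.663 under the other alternatives.

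**Figure D4:**
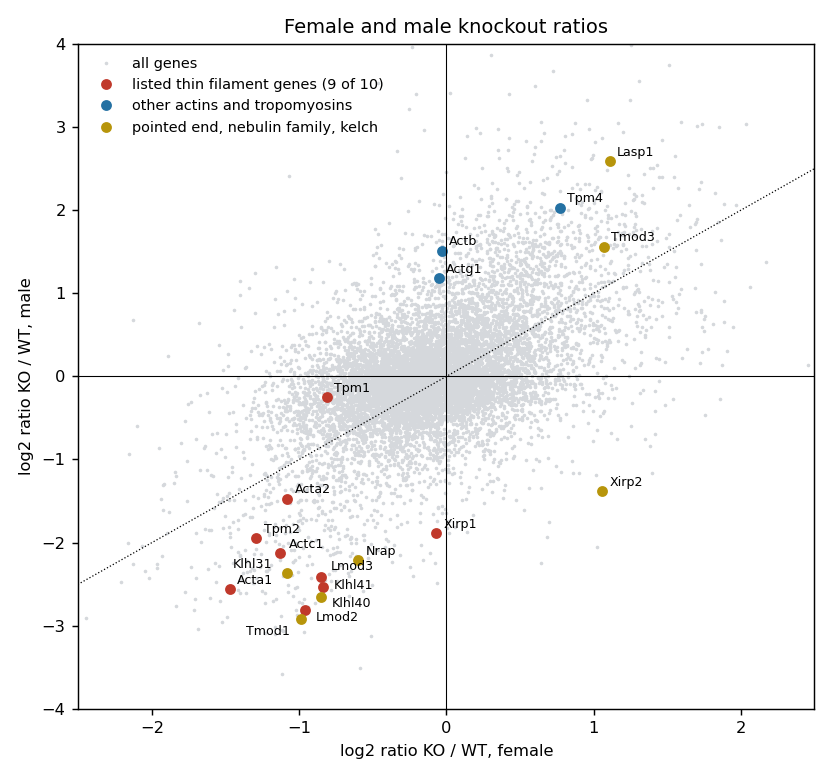
Log2 ratio of KO over WT in females (x axis) against males (y axis), with 10482 genes in grey (21 lie outside the axes), 9 of the 10 genes in red, other actins and tropomyosins in blue and pointed-end, nebulin-family and kelch genes in yellow; the dotted line marks equal ratios. Of the red points 8 lie below the dotted line and Tpm1, at -0.81 and -0.25, above it. Ratios of all genes tested also spread wider in males than in females (5th to 95th percentile).

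Other proteins of the filament's ends and length were read from a list of 11 genes. Tmod1, the tropomodulin that caps pointed ends in striated muscle, was 8.41 FPKM in female KO and 17.7 in female WT cells, 2.16 in male KO and 22.9 in male WT cells, and 18.1 in KI and 25.8 in Ctrl-KI cells. Tmod3, the ubiquitous tropomodulin, was higher in each mutant column, at 26.6 FPKM in female KO and 12.2 in female WT cells, 23.1 in male KO and 7.17 in male WT cells, and 14.2 in KI and 7.23 in Ctrl-KI cells. The quotient of Tmod1 over Tmod3 was 0.316 in female KO and 1.45 in female WT cells, 0.0935 in male KO and 3.19 in male WT cells, and 1.27 in KI and 3.57 in Ctrl-KI cells. Tmod1 intervals overlapped in both sexes, at 0.733 to 16.1 FPKM in female KO and 3.52 to 31.8 in female WT cells. In males they were 0 to 10 in KO and 0 to 67.3 in WT cells. Lasp1, a non-muscle member of the nebulin family, was 69.3 FPKM in female KO and 31.5 in female WT cells, 55.4 in male KO and 8.39 in male WT cells, and 30.8 in KI and 6.01 in Ctrl-KI cells; its male intervals were apart, as for 0.603% of all genes tested as higher. Klhl40, the closest muscle paralogue of Klhl41 (listed as Kbtbd5), had log2 ratios of -0.85 in females, -2.65 in males and 0.23 in the KI table. That KI ratio was 0.33 after TPM over loci with a symbol and -0.58 after TPM over all loci. Of the genes of this list that were tested, 1 of 8 was at least 2-fold lower and 3 of 8 at least 2-fold higher in female KO, against 4.4% and 4.49% of all genes tested. In male KO 5 of 8 were lower and 2 of 8 higher, against 6.47% and 9.9%, and in KI cells 0 of 8 lower and 2 of 8 higher, against 0.893% and 3.86%. The lowest was Klhl31 in females (-1.08) and Tmod1 in males (-2.92), and the highest Lasp1 in both (1.11 and 2.59).

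Among 13 barbed-end, severing and monomer-binding genes, the cofilins and the cyclase-associated proteins each include a muscle and a general form. Cfl2, muscle cofilin, was 141 FPKM in female KO and 253 in female WT cells and 145 in male KO and 302 in male WT cells. Cfl1, the general cofilin, was 188 in female KO and 145 in female WT cells and 685 in male KO and 343 in male WT cells. The quotient of Cfl2 over Cfl1 was 0.75 in female KO and 1.74 in female WT cells, 0.212 in male KO and 0.88 in male WT cells, and 0.621 in KI and 1.02 in Ctrl-KI cells. Cap2, the striated muscle cyclase-associated protein, was the lowest of this list in females (-1.06) and males (-1.35), and the highest were Cap1 (0.53), its general counterpart, in females and Pfn2 (1.71), a profilin, in males. In the list 1 of 13 was at least 2-fold lower and 0 higher in female KO (4.4% and 4.49% of all genes), 3 lower and 3 higher in male KO (6.47% and 9.9%), and 0 either way in KI cells.

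Of 7 genes of the serum response factor pathway, 6 were tested in each table. Srf itself was 21.1 FPKM in female KO and 26.1 in female WT cells, 24.1 in male KO and 29.5 in male WT cells, and 30.4 in KI and 31.1 in Ctrl-KI cells, and differed by less than 2-fold in each. Abra, a muscle activator of the pathway, was the lowest (-0.71 in females, -1.61 in males, -0.85 in the KI table), and Fhl2, a LIM protein that binds the factor, the highest (0.94, 1.34 and 1.52). Myocd was at most 0.128 FPKM in any column. In the limma fit 0 genes of these lists passed an adjusted p of 0.05, as with the 10482 genes tested.

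By the Euclidean distance over the 3 log2 ratios among 7019 genes with at least 5 FPKM in 1 column of each table, the 5 genes most like Acta1 were Prkag3 (distance 0.12), Actn2 (0.14), Smpx (0.19), Myl4 (0.19) and Myom1 (0.22). Those most like Acta2 were Tspan33 (0.10), Akt2 (0.14), Phka2 (0.16), Sspn (0.17) and Cap2 (0.17). The likeness rests on 3 values per gene and is a description.

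Of the myogenic markers, Ckm, muscle creatine kinase, had the lowest ratio in both sexes. It was 20.2 FPKM in female KO and 147 in female WT cells, 6.82 in male KO and 110 in male WT cells, and 152 in KI and 143 in Ctrl-KI cells. Its log2 ratios of -2.81 in females and -3.83 in males had intervals apart in both sexes (0.235% of all genes tested were lower with intervals apart in female KO), and its KI ratio was 0.08. Myog, the factor of early differentiation, was 817 FPKM in female KO and 1305.2 in female WT cells and 961 in male KO and 3424.4 in male WT cells. Pax7, the satellite cell factor, was the highest of the list, at 5.54 FPKM in female KO and 4.33 in female WT cells and 16.3 in male KO and 5.82 in male WT cells. Of the 6 myogenic genes 2 were at least 2-fold lower and 0 higher in female KO (4.4% and 4.49% of all genes), 2 lower and 1 higher in male KO (6.47% and 9.9%), and 0 either way in KI cells, with medians of -0.78 in female KO, -0.74 in male KO and -0.10 in KI.

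Markers of other cell types were higher in mutant columns in several lists. The summed FPKM of 10 fibro-adipogenic markers was 772 in female KO and 330 in female WT cells, 112 in male KO and 31.2 in male WT cells, and 472 in KI and 20.9 in Ctrl-KI cells, with 8 of 9 tested markers above the control in females (43.3% of all genes), 7 of 7 in males (48.4%) and 8 of 9 in KI cells (42.6%). Lum was at 0 in both male columns and in Ctrl-KI cells. The female KO sum rests mostly on Col1a1 (325), Col1a2 (202) and Col3a1 (142), and the KI sum on the same collagens (158, 149 and 112). The male KO sum rests mostly on Col3a1 (59.1), Thy1 (22.1) and Tcf7l2 (12.5), while Pdgfra was 0.697 and Dcn 0.768 FPKM. The summed FPKM of 9 endothelial markers was 33.1 in female KO and 21.1 in female WT cells, 70.7 in male KO and 2.05 in male WT cells, and 9.68 in KI and 2.76 in Ctrl-KI cells, with 6 of 7, 4 of 4 and 1 of 1 tested markers above the control in the same tables. A marker under 1 FPKM in the control could pass the filter only by being higher in the mutant column. This held in males for Ly6a, Cd34, Thy1, Pecam1, Cdh5 and Emcn. In the KI table it held for Pdgfra, Dcn, Col1a1, Col1a2, Ly6a, Cd34 and Thy1. The male and KI counts above the control are therefore no measure of a shift. In the other marker lists it held for Csf1r and Nppb in females and for Lyz2, Cnn1 and the merged Tnni3 locus in males. In the KI table it also held for Pdgfrb, Cspg4, Rgs5, Actg2, Cnn1, Myh6 and Lyz2. The ratios of all these genes could only be above 0, and their direction is no result. Tie1 was at 0 in male WT and Ctrl-KI cells and Emcn at 0 in Ctrl-KI cells. The list was uneven in male KO cells, where Kdr was 0.122, Flt1 0.244, Tek 0.38, Tie1 0.0404 and Vwf 0.559 FPKM. The male KO sum rests on Emcn (40.6), Eng (13.3), Cdh5 (12.3) and Pecam1 (3.2). The highest and lowest fibro-adipogenic ratios were those of Pdgfra (2.09, intervals apart, as for 0.664% of all genes tested as higher) and Tcf7l2 (-0.16) in female KO and of Thy1 (4.22) and Tcf7l2 (0.25) in male KO, and the endothelial ones those of Tek (0.75) and Vwf (-0.46) in females and of Emcn (5.34) and Pecam1 (2) in males. Emcn alone was 40.6 FPKM in male KO and 0.0268 in male WT cells. The 10 smooth muscle and pericyte markers summed to 250 FPKM in female KO and 186 in female WT cells, 9 of them without Tagln to 39.2 in male KO and 95.3 in male WT cells, where Smtn alone was 25.8 in KO and 89.1 in WT, and all 10 to 268 in KI and 131 in Ctrl-KI cells, with Pdgfrb (1.22) and Mylk (-0.84) at the ends of the female list and Cnn1 (2.40) and Smtn (-1.75) at those of the male list. The 6 immune markers summed to 15.4 FPKM in female KO and 8.54 in female WT cells, of which Cd68 was 11.5 in KO and 7.25 in WT. The other 5 summed to 8.35 in male KO and 1.4 in male WT cells and to 32.5 in KI and 0.982 in Ctrl-KI cells, the Cd68 locus being merged with Eif4a1 and Senp3 in both those tables, while Ptprc, which defines them, was at most 0.224 FPKM in any column. Lyz2 alone was 7.94 FPKM in male KO and 0.681 in male WT cells, and 31 in KI and 0.282 in Ctrl-KI cells. Itgam was lower in both mutant columns, at 0.149 against 0.7 FPKM in males and 0.331 against 0.689 in the KI table. Among the immune markers, the highest and lowest ratios were Csf1r (1.28) and Cd68 (0.60) in females. In males they were Lyz2 (2.41) and the merged Cd68 locus (0.31), which is no value of Cd68 alone. The 7 cardiac markers summed to 4.36 FPKM in female KO and 4.04 in female WT cells, and 6 of them, without the Tnni3 locus that is merged with 6030429G01Rik there, to 2.61 in male KO and 1.66 in male WT cells, and 7.65 in KI and 1.71 in Ctrl-KI cells, with Nppb (0.73) and Tnni3 (-0.05) at the ends in females and the merged Tnni3 locus (0.62) and Gata4 (0.50) in males. The part of these markers and of the myogenic ones in the lower thin filament values was not tested. In such bulk samples fewer cells of a type and less RNA per cell cannot be told apart.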

How the data were processed

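Gene expression was measured by RNA sequencing in 8 libraries of differentiating mouse myoblasts. The authors deposited FPKM values with confidence bounds in 3 Cufflinks-style gene tables, per the file headers. The level of those bounds, the annotation and the scaling between libraries are not given in the sources used here. The submitters' processing notes name mm9, edgeR, Cuffdiff, Cufflinks 2.2.1, TopHat2 2.0.12, Bowtie2 2.2.4 and HTSeq 0.6.1, without their roles. Starts are printed 1 higher than deposited, since 224 of 226 microRNA loci within 5 bases of their RefSeq length had that length only with starts counted from 0.

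Loci without a symbol (0, 5680 and 5971) or with a status other than OK (6, 61 and 15) were left out, and a gene needed at least 1 FPKM in 1 column. Log2 ratios used a pseudocount of 1 FPKM, which understates changes of low genes, and were formed within a table only. A limma test across KI replicates was not possible, since that table is pooled. The KO ratios of both sexes were fitted with limma 3.58.1 (R 4.3.3, intercept against 0, trend, 1 residual degree of freedom), which was tested on simulated data. Tables were handled in python 3.11.15 with pandas 2.3.3.

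The members and lists were chosen with earlier results of these data known, and so was the naming rule: the 10 genes, Kdm6a, the highest and lowest gene of each list in each KO comparison, and the 5 nearest patterns to Acta1 and Acta2. Cell type, cofilin, tropomodulin and other list genes named beyond it were chosen after their values were seen, as were the quotients between isoforms. Lists covered other actins and tropomyosins, pointed-end and nebulin-family genes, barbed-end genes, the serum response factor pathway, and myogenic, smooth muscle and pericyte, fibro-adipogenic, endothelial, cardiac and immune markers. Alternatives changed the pseudocount (0.1 or 5 FPKM), the minimum (none or 5 FPKM), the scaling (ratios centred on the median, or TPM over loci with a symbol or over all), the status, the call (intervals that do not overlap) and limma's trend.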

Additional observations from a re-analysis of the deposited data

Results flagged for a closer look

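Of 59 list genes with both ratios, 2 had KO ratios of at least 0.5 (log2) in opposite directions in the 2 sexes; with 1 library per group the difference was not tested. Xirp2, a paralogue of Xirp1, was 33.2 FPKM in female KO and 15.4 in female WT cells (log2 ratio 1.06) but 1.33 in male KO and 5.07 in male WT cells (-1.38), a male minus female difference of -2.44; in the KI table it was 18.7 in KI and 4.02 in Ctrl-KI cells. Smtn, smoothelin, was 100 FPKM in female KO and 61.4 in female WT cells (0.70) but 25.8 in male KO and 89.1 in male WT cells (-1.75), a difference of -2.45.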

How the results depend on the processing

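Of 282 recomputed values, 206 ratios of single genes kept their direction and their side of 2-fold, and 50 counts or medians stayed on their side or, for counts, within 1.5 times. The number of genes at least 2-fold lower in female KO, 4 of 10, was 3 with median centring, where Acta2 lost 2-fold, and 2 after TPM over loci with a symbol or over all loci, which moved the median of all genes from -0.08 to 0.10; Xirp1 in females turned to 0.10 under both and to 0.01 with median centring. With non-overlapping intervals as the call, the counts of lower genes were 0 in female KO, 1 in male KO and 1 in KI. TPM over all loci, which moved the median of all genes to -0.70 in males and -0.77 in the KI table, where loci without a symbol held 86.1% of summed FPKM in male KO and 72.8% in male WT, 77.6% in KI and 57.1% in Ctrl-KI cells, gave 8 of 9 genes at least 2-fold lower in KI cells with a median of -1.28, and -0.68 for Lmod2. The limma fit called 4 of 9 genes with a filter of 5 FPKM, where fewer genes were tested (7732), and 0 under its other 6 alternatives. With that filter 130 genes of all passed, 88 of them lower, against 0. Over all genes, those at least 2-fold lower and higher numbered 543 and 554 in female KO, but 396 and 681 with median centring and 427 and 1197 after TPM; in male KO 740 and 1132, but 715 and 1799 after TPM over loci with a symbol and 2521 and 253 over all loci; and in KI cells 99 and 428, but 1683 and 196 after TPM over all loci. A pseudocount of 0.1 FPKM gave 809 and 938 in female KO and 168 and 602 in KI cells, and one of 5 FPKM 246 and 196 in female KO, 475 and 443 in male KO and 47 and 177 in KI cells. The cause was not tested. Leaving out a sex leaves 1 ratio and no test, and the pooled KI columns allow no replicate to be left out. No paired analysis was possible because the KI and Ctrl-KI groups, which alone share several replicate numbers, are pooled in 1 column each; the KO and WT libraries are matched by sex only, as the limma fit on ratios within each sex does. Depth is unknown, and the wide intervals of the 1-library columns limit every value.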
